A study of Rattus norvegicus with 3 samples.

Results

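The stromal single-cell library of the Lewis rat thymus held 67 barcodes with at least 7000 genes that the authors' cell table left without a label. They were found by 2 criteria, absence from that table and a minimum of 7000 genes with a UMI (a unique molecular identifier, 1 counted RNA molecule), and they were 67 of 16160 stromal barcodes, or 0.415%. They held 3043967 UMIs, 2.17% of the library. The other stromal barcodes were 13226 annotated cells and 2867 barcodes without a label and with fewer genes. The library was made from thymi of 8-week-old rats, with Liberase TH and DNase I as the digestion mix and ACK buffer to lyse red cells. Cells without CD45, the surface protein of blood-derived cells, were enriched on an autoMACS and sorted by flow cytometry. The same study made a droplet library of thymocytes, used here only for shared barcodes and gene numbers, and a spatial section, which was not analysed here. With 1 stromal library there was no replicate, no test was possible, and every value describes this library. The sources used here do not give the number of animals pooled.

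The thymic stroma builds the tissue in which T cells are selected. Cortical thymic epithelial cells (cTEC) attract and positively select thymocytes, and medullary thymic epithelial cells (mTEC) display self antigens. In the mTEC2 stage the transcription factor Aire switches on many tissue-restricted genes, while mTEC1 cells make the chemokine Ccl21 and the basal keratins, and mTEC-prol are the dividing medullary cells. Fibroblasts (labelled TMC and capFb), mural cells and endothelium form the rest of the stroma. In droplet libraries, 1 barcode can also hold RNA of more than 1 cell, and such a barcode carries markers of each of them when their types differ.

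Gene number was the criterion, so depth is a description only. The 67 barcodes had 28570 to 100570 UMIs with a median of 42415, and 7004 to 9195 genes with a median of 7468. Of them 35 had fewer than 7500 genes and 16 had at least 8000. Annotated cells had a median of 9087.5 UMIs and 3309 genes and ended at 6999 genes, and 244 of them had at least 6000. The 2867 other unlabelled barcodes ended at 4713 genes. Just inside the criterion, 9 barcodes of 7000 to 7100 genes had 28570 to 38832 UMIs, and just outside it, 10 annotated cells of 6900 to 6999 genes had 27277 to 44955. Mitochondrial genes took a median of 3.53% of the UMIs of the 67, against 4.41% in annotated cells and 74.5% in the other unlabelled barcodes, and 56 of the 67 were under 5%. None of the 67 barcodes was among the 38 that the stromal and thymocyte libraries shared. In the thymocyte library, 78 of 8546 annotated cells had at least 7000 genes and the highest had 8709.

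**Figure D1:**
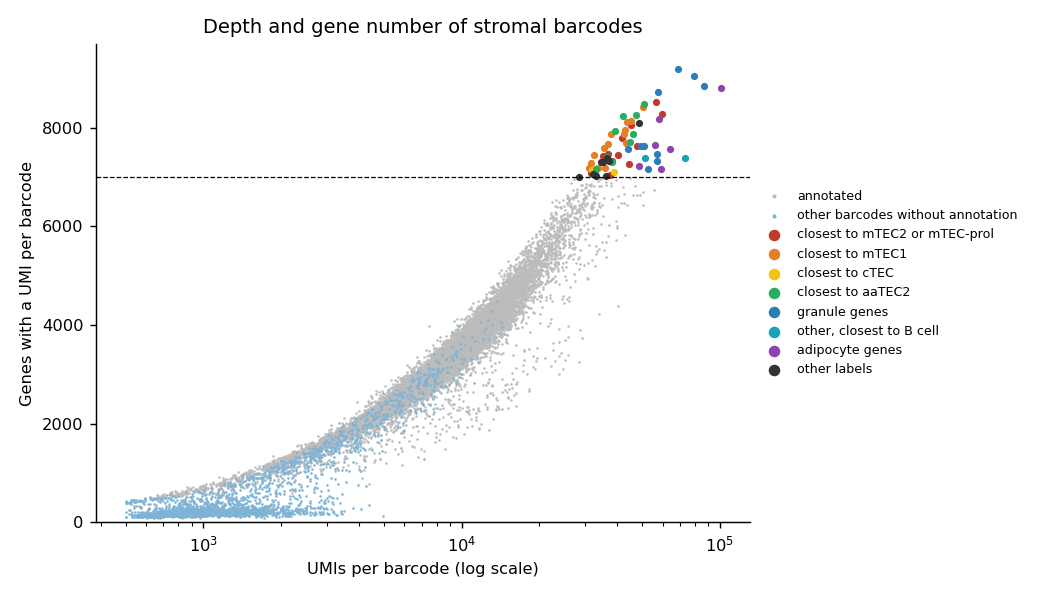
UMIs per barcode (horizontal, log scale) against genes with a UMI (vertical) for stromal barcodes, with annotated cells, other barcodes without a label and the 67 gene-rich ones in separate colours. The 67 lie above 7000 genes and begin at 28570 UMIs, and annotated cells stop at 6999 genes.

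To place each barcode, its counts were set against the summed profile of 24 annotated labels over 16162 genes, and the label of the highest multinomial likelihood was taken as the closest. Epithelial labels were closest for 45 of 67 barcodes (67.2%, exact 95% binomial interval 54.6 to 78.2). Of these 45, only 40 carried a list of epithelial marker genes, by the rule for lists given below. An epithelial closest label thus does not by itself show epithelial genes. The closest label was mTEC1 for 15, B cell for 13, aaTEC2 (a label of the authors for an epithelial subset) for 10, mTEC-prol for 8, cTEC for 6 and mTEC2 for 4. The 11 left were closest to TMC3 (3), Myeloid (2), TMC1 (2), and 1 each to EC:aEC (endothelium), TEC:mimetic(goblet), TEC:early Pr and vSMC/PC (mural cells). Labels of 1 lineage overlap by this measure: of annotated cells, 46.5% of mTEC1 and 55.4% of cTEC had their own label as the closest, and 96.7% and 99.6% their own lineage. Lineages overlapped too, since the closest label was of the own lineage for 71.5% of annotated B cell and 82.8% of aaTEC2 cells. By a second measure, Spearman correlation, 45 of 67 kept the label and 50 the lineage, and epithelial labels were closest for 39. The intervals given here and below cover counting error only, and cells vary more than counting does.

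The epithelial surface gene Epcam had a UMI in 46 of the 67 barcodes and Aire in 11, so the group as a whole is not 1 cell type by these markers. Epcam stood at 421 CPM (UMIs per 1000000 UMIs summed over a group, exact 95% Poisson interval 398 to 445) and Aire at 52.9 CPM (45.0 to 61.7). Aire UMIs were concentrated: the 11 barcodes held 161 between them, 9 held at least 5, and 8 of the 11 were closest to mTEC2 or mTEC-prol. To remove the effect of depth, barcodes were also thinned to 10000 UMIs, which left out 7793 shallower annotated cells. At that depth Aire was seen in 9 of 67 (13.4%) and in 3 of 876 cells of the fibroblast label capFb (0.342%, 0.0707 to 0.998), a type that should lack it and whose median depth before thinning was 11378.5 UMIs. Epcam was seen at that depth in 42 of 67 (62.7%) and in 4.57% of capFb cells.

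The barcodes were then grouped by closest label, and barcodes with strong blood or fat genes were taken out of their label. Those lists (granule, red cell progenitor and adipocyte genes) were chosen after the values had been seen, and the groups are named by their label or leading genes. The granule and adipocyte groups were formed by those lists, so the presence of the list genes in them follows from the choice. The groups were 12 medullary barcodes (4 closest to mTEC2 and 8 to mTEC-prol), 15 mTEC1, 3 cTEC, 10 aaTEC2, 10 with granule genes, 6 with adipocyte genes, 2 other blood-like and 9 of other labels.

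**Figure D2:**
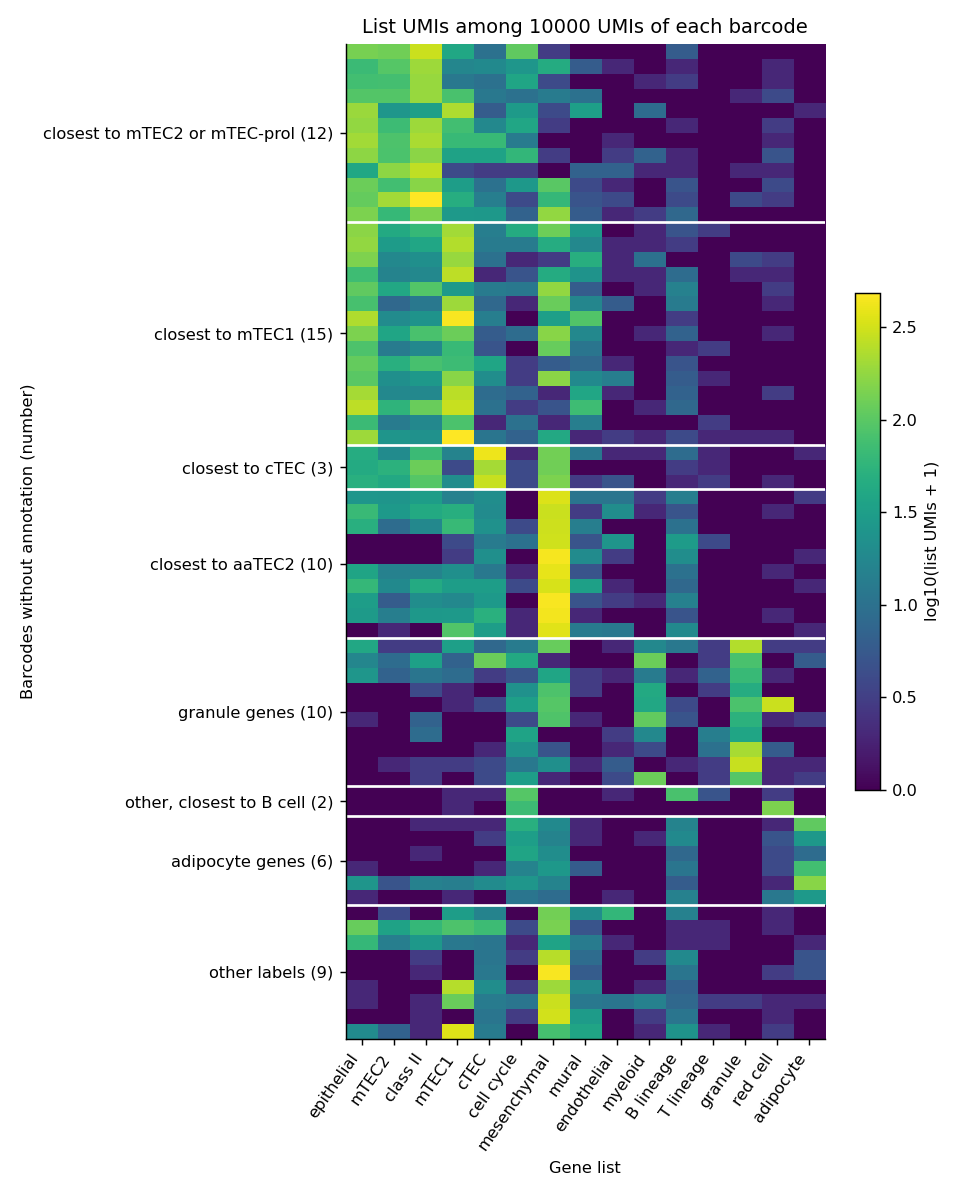
Heat map of the UMIs of 15 gene lists (columns) among 10000 UMIs of each of the 67 barcodes (rows, grouped by closest label or leading list), coloured by log10 of the list UMIs plus 1. Epithelial lists fill the upper groups. The mesenchymal list is at 294 to 459 UMIs in the 10 barcodes closest to aaTEC2 and reaches 462 in 1 barcode of another label. Granule and adipocyte lists each mark the block that was formed by that list.

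Of the 12 medullary barcodes, 8 had Aire and 4 had none. Aire had 149 UMIs in all, at 0 to 572 CPM per barcode with a median of 279. Summed, this was 289 CPM (245 to 340), between 468 (424 to 516) in annotated mTEC2 and 147 (127 to 169) in mTEC-prol. The 4 closest to mTEC2 stood at 282 and the 8 closest to mTEC-prol at 293, and the counting intervals of these levels overlapped. At 10000 UMIs, Aire was found in 8 of 12 (66.7%, 34.9 to 90.1), in 23 of 33 annotated mTEC2 (69.7%) and in 19 of 59 mTEC-prol (32.2%). Against both annotated labels summed, the level was 1.06 times theirs (289 and 272 CPM).

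Fezf2, the other transcription factor of self-antigen expression, stood at 342 CPM (293 to 396) in 10 of the 12 barcodes, with 232 in annotated mTEC2 and 244 in mTEC-prol. Over both labels the ratio was 1.43. Hes6, a bHLH factor of the Hes family, stood at 1753 CPM and ranged from 0 to 7207 per barcode, against 882 in mTEC2 and 869 in mTEC-prol. The single barcode of 44399 UMIs held 320 of its 903 UMIs. Insm1, a zinc-finger factor of endocrine cells, stood at 276 CPM (232 to 325) in 11 barcodes, against 167 and 133. For Hes6 and Insm1 the excess lay with the 8 barcodes closest to mTEC-prol, at 2362 and 369 CPM, while the 4 closest to mTEC2 had 553 and 92.2. Epcam was present in 12 of 12, at 836 CPM, below the 948 of both labels together when UMIs were summed and above it when barcodes were averaged.

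Class II genes were near the level of both labels summed, which is not the level of either label alone. RT1-Da, a class II chain, stood at 3932 CPM against 3936 in both labels together, and Cd74, the class II invariant chain, at 6071 against 6157. For RT1-Da the labels differed: in annotated cells of at least 10000 UMIs the median was 6115 CPM in mTEC2 and 870 in mTEC-prol. RT1-Da ranged from 255 to 10559 CPM over the 12 barcodes, and the lowest value was that of the barcode with the most Ccl21. The RANK receptor Tnfrsf11a, which drives mTEC maturation, was in 12 of 12 at 262 CPM against 276 in mTEC2. Cd40 was also in 12 of 12, at 171 CPM against 189. Genes of late mTEC2 were uneven: all 141 UMIs of Ccl22, a chemokine for CCR4-bearing thymocytes, came from the barcode of 56442 UMIs. The co-stimulatory gene Cd86 had 3 UMIs (5.82 CPM, 1.20 to 17.0) against 86.8 in mTEC2, and the chemokine gene Ccl17 had 1 UMI against 233 CPM. Of the 12, 8 were closest to mTEC-prol, so levels set against mTEC2 alone may depend in part on that makeup. At 10000 UMIs, Ccl22 was seen in 10 of 33 annotated mTEC2 and in 1 of 59 mTEC-prol.

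Division genes separated the medullary barcodes. Top2a, the mitotic topoisomerase, had 0 to 1668 CPM per barcode and 386 summed, against 8.00 in mTEC2 and 142 in mTEC-prol. Mki67 stood at 458 CPM in 10 of the 12, against 74.3 and 348. The barcode of 59942 UMIs alone held 100 of the 199 Top2a UMIs and 106 of the 236 Mki67 UMIs. The summed cell-cycle list was 1.44 times the level of both labels together. At 10000 UMIs the medullary barcodes had 2 to 106 cell-cycle UMIs with a median of 25.5, near the median of 24 in mTEC-prol and above the 2 of mTEC2.

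The tissue-restricted antigen list stood at 0.595 times the level in both labels, and at 0.335 times with only the 6 barcodes of 1 lineage. Of its 49 genes, the 4 barcodes closest to mTEC2 showed 0 to 4 per 10000 UMIs with a median of 2, and 3 of 4 showed any. Annotated mTEC2 also had a median of 2, with a range of 0 to 9, and 30 of 33 showed any. Of the 8 closest to mTEC-prol, 2 showed any, against 33 of 59 annotated mTEC-prol. Cells that should lack Aire also showed antigen UMIs, in 24.2% of capFb and 67.9% of TMC4 cells, so the shares of mTEC-prol and of the 8 lie within the range of background.

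**Figure D3:**
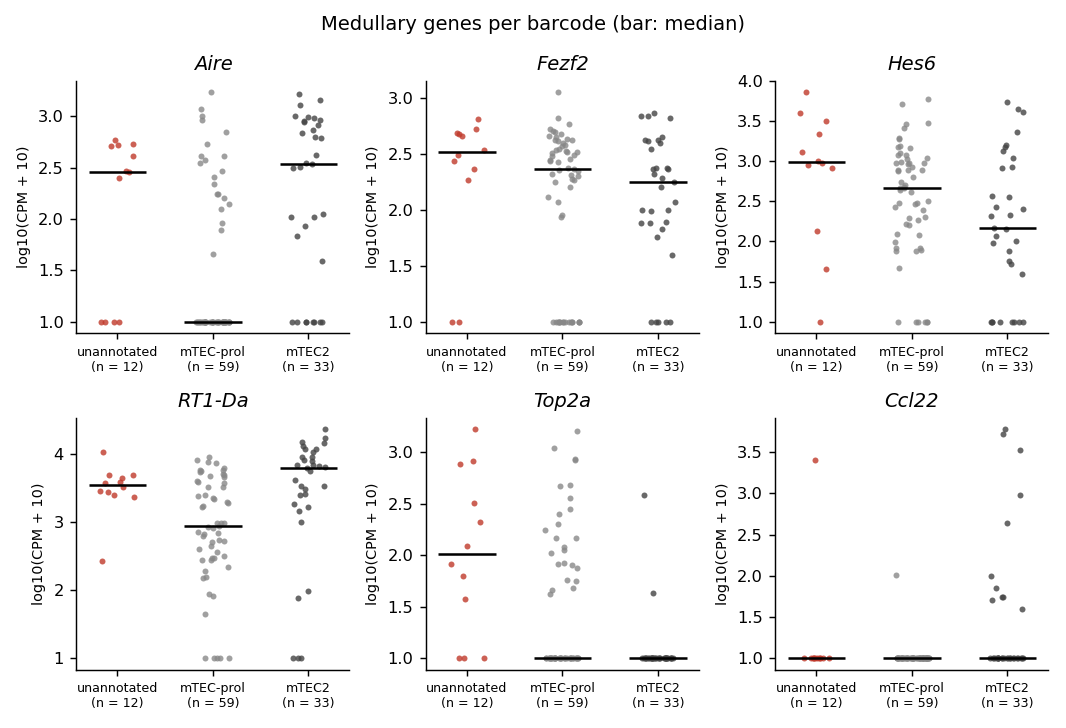
Level per barcode, as log10 of CPM plus 10, of 6 medullary genes in the 12 unlabelled barcodes closest to mTEC2 or mTEC-prol and in annotated mTEC-prol (59) and mTEC2 (33) cells of at least 10000 UMIs, with bars at the medians. Aire and RT1-Da of the 12 lie within the annotated ranges, Top2a reaches the mTEC-prol range, and Ccl22 is seen in 1 of the 12.

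Across all genes, a difference was called at 3-fold or more with at least 50 UMIs in both groups together. Of 8182 genes compared between the 12 medullary barcodes and both annotated labels, 90 were higher (1.1%) and 236 lower (2.88%). With only the 6 barcodes of 1 lineage, 366 were lower. Of the 11 mTEC2 genes 0 were higher and 1 was lower, of 9 class II genes 0 and 0, of 20 cell-cycle genes 1 and 0, and of 8 antigens 0 and 4. The median log2 ratio was -0.00 for mTEC2 genes and 0.00 for class II genes, 0.59 for cell-cycle genes and -1.66 for antigens, against -0.00 over all genes compared. The largest leads were Des, a muscle and mural filament, at 105 CPM against 17.8, Gadd45a, a stress-response gene, at 116 against 24.5, and Gjb2, a gap junction gene, at 140 against 41.5. Col6a1, a matrix collagen, stood at 153 against 46.8. Among the lower genes were Fgfr2, the receptor of epithelial growth factors, at 2 UMIs against 71.4 CPM, and Il2ra, at 31.1 against 173 CPM. These lists were known from earlier results of the same data, and the counts describe only these barcodes. The barcodes were also placed by likeness to these labels across genes, so closeness of their levels to the labels follows in part from that choice.

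The 15 mTEC1 barcodes all had Epcam, Krt5 and Krt14. Ccl21, the CCR7 ligand that draws thymocytes into the medulla, ranged from 141 to 38266 CPM with a median of 14595, and summed to 14187 against 12495 in annotated mTEC1. A UMI of Ccl21 was also seen in 46.2% of capFb cells at 10000 UMIs, where its level was 94.2 CPM before thinning, so only the level is used. The lowest of the 15, with 6 UMIs, was near that level. Krt5 stood at 2838 CPM against 3340, Krt14 at 2413 against 3622 and Epcam at 985 against 1459. Tp63, the factor of basal epithelium, was at 295 CPM against 294. The 15 were placed by likeness to this label, so closeness of levels follows in part from that choice.

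Secreted lectins of the Reg3 family were uneven among the mTEC1 barcodes. Reg3g stood at 2472 CPM against 1235 and Reg3b at 1188 against 594, with a median of Reg3g per barcode of 31.5 CPM and a range of 0 to 9246. Shroom4, a cytoskeletal regulator, led the group's own genes at 305 CPM against 116, and was in 15 of 15. Fgf13 was at 425 CPM against 187 and the protocadherin Pcdh7 at 1490 against 794. Dcn, a fibroblast proteoglycan, was at 2929 CPM (0 to 9653 per barcode) against 1294, and Acta2, smooth muscle actin, at 952 against 751. Dcn is in the mesenchymal list, carried by 10 of the 15 barcodes, and Acta2 in the mural list, carried by 9. Annotated mTEC1 cells of at least 10000 UMIs also carried these lists, in 43.3% and 19.8%. The mural list was carried without the mesenchymal list by 3 of the 15, and whether it marked a second cell type there was not tested. Aire was in 2 of the 15, with 10 and 1 UMIs.

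Several cortical genes were higher in the 3 cTEC barcodes than in the label summed. Ccl25, the chemokine for CCR9 on early thymocytes, was at 2446, 3361 and 8069 CPM, against 535 over annotated cTEC. At 10000 UMIs it was seen in 36 of 236 annotated cTEC (15.3%), so 535 averages over many cells without it. Whether the 3 exceed the annotated cells that have Ccl25 was not tested. Tbata, a thymus-enriched gene, was at 12221 to 17426 CPM against 3128, the lysosomal protease Ctsl at 7862 against 2353 and Pax1 at 541 against 207. The serine protease Prss16 of antigen processing was in 2 of 3, at 1006 CPM summed against 207. Psmb11, the thymoproteasome subunit, had 2 UMIs in the 3 barcodes. The notch ligand Dll4 had 12 UMIs, at 116 CPM (60.0 to 203) against 9.82. All 3 also held fibroblast genes, with Col1a1 at 721, 2719 and 2920 CPM and 125 to 141 mesenchymal list UMIs of 10000, against a median of 3 in annotated TEC:cTEC.

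Of the 10 barcodes closest to aaTEC2, all carried the mesenchymal list and 7 also the epithelial list, which was at 0 UMIs of 10000 in the other 3. Col1a1, the fibrillar collagen, ranged from 2735 to 7378 CPM and summed to 5086, against 6962 in annotated aaTEC2. Dcn stood at 10396 CPM against 10552, and Pi16, a marker of adventitial fibroblasts, at 2422 against 1909. Epcam was in 7 of 10 at 311 CPM (260 to 370) against 254 (214 to 300) in the label, Krt5 at 605 against 575 and Krt14 at 909 against 824. These barcodes were placed by likeness to the label, so closeness of their levels to it follows in part from that choice. The 3 barcodes without Epcam had 0 or 1 Krt5 UMI. All 10 had at least 100 mesenchymal UMIs of 10000, with 294 to 459. Of annotated aaTEC2 cells of at least 10000 UMIs, 22 of 25 carried more than 1 lineage, the same number had mixed weights as defined below, and 8 of the 29 in the label had at least 6000 genes. Put together, 25.6% of all barcodes closest to or labelled aaTEC2 were among the 67, against 9.52% for mTEC-prol, 6.15% for mTEC2, 3.02% for mTEC1 and 1.32% for cTEC.

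Among the 9 barcodes of other labels, 5 were closest to fibroblast labels. They had 0 Epcam UMIs, which by a limit of 3 UMIs allows up to 15.7 CPM, and Dcn at 6775 to 17434 CPM. Ccl21 was in 2 of these 5, at 6456 CPM summed, against 4160 in annotated TMC3. The barcode closest to vSMC/PC had 1341 Ccl21 UMIs, 34 Epcam UMIs and 165 Dcn UMIs. The barcode closest to EC:aEC held 51 UMIs of the endothelial adhesion gene Pecam1 and 47 of Col1a1. The barcodes closest to TEC:early Pr and TEC:mimetic(goblet) each had 32 Epcam UMIs.

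A group of 10 barcodes carried genes of the granules of white blood cells. Mpo, the myeloperoxidase of neutrophil granules, was in 10 of 10, at 510 to 5007 CPM, and summed to 2038 (1926 to 2155) against 1871 in the annotated Myeloid label. Its level was 1.55 CPM in capFb cells, and 1.71% of those had a UMI at 10000. Ctsg, a granule protease, was at 3521 CPM against 5353 and Elane, the neutrophil elastase, at 1224 in 6 of 10 against 2727. Prtn3, proteinase 3, was at 209 against 1274. The mast cell protease family members were higher than in the Myeloid label: Mcpt8 was at 2023 CPM against 377, Mcpt9 at 1509 against 326 and Mcpt10 at 1702 against 146.

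In the same 10 barcodes, the factor Myb was in 10 of 10 at 444 CPM against 245, the receptor Kit in 8 of 10 at 56.3 (39.0 to 78.7) against 12.4, and Plac8 at 3171 against 2343. Mki67 was in 10 of 10 at 360 CPM. Ptprc, which encodes CD45, was in 10 of 10, at 20.2 to 407 CPM and 128 summed, against 255 in the Myeloid label and 1.61 in capFb cells. The label closest to 8 of the 10 was B cell and to 2 it was Myeloid. Yet the B-cell receptor gene Cd79a was at 0 UMIs in all 10 (at most 4.97 CPM by a limit of 3 UMIs) and Cd79b had 2 UMIs. The annotated B cell label itself carried the B-lineage list in 63 of 126 cells and the cell-cycle list in 126 of 126. The barcode of 49521 UMIs also held 293 red cell list UMIs of 10000, with 238 UMIs of the globin chaperone Ahsp. The barcode of 86404 UMIs held 162 UMIs of Ccl25 and 54 of Prss16 beside 98 of Mpo. By the marker lists defined below, 7 of the 10 carried more than 1 lineage. The myeloid list was carried by 8, the mesenchymal list by 6 and the epithelial list by 3. Annotated Myeloid cells of at least 10000 UMIs carried the mesenchymal list in 30.7% and the epithelial list in 5.88%. The barcode of 69109 UMIs held 127 UMIs of Col1a1 and 152 of Dcn beside 346 of Mpo.

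Adipocyte genes marked 6 barcodes, of which 3 were closest to cTEC and 3 to B cell. Fabp4, the fatty acid carrier of fat cells and capillaries, was at 9108 to 26307 CPM and summed to 21122, against 2214 over annotated cTEC. Adipoq, the fat hormone adiponectin, was in 5 of 6 at 641 CPM, Car3 in 4 of 6 at 4333 and the lipid droplet gene Plin1 in 5 of 6 at 186. Gpd1 and Pparg, the master factor of fat cells, were in 6 of 6, at 680 and 563 CPM. The mitochondrial chaperone Hspd1 was at 1902 CPM (1552 to 2155 per barcode), against 187 in cTEC, and C1qbp at 990 against 137. Mki67 was in 6 of 6, at 411 CPM. Epcam had 2 UMIs, at 5.17 CPM beside 4.64 in capFb cells, Ptprc 0 and the brown fat gene Ucp1 0. In the annotated data the adipocyte list was carried by 10 of 236 cells labelled TEC:cTEC and by 26 of 646 labelled TMC1.

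The 2 blood-like barcodes left were both closest to B cell and carried no second lineage. One, of 51209 UMIs, held 44 UMIs of Cd79a, 55 of the plasma cell gene Jchain and 12 of Ptprc, with 82 B-lineage and 94 cell-cycle UMIs of 10000. The other, of 73161 UMIs, held 530 UMIs of Car1, 181 of Ahsp and 28 of the erythroid factor Klf1, with 141 red cell list UMIs, 0 of Ptprc and 69 cell-cycle UMIs. No doublet caller was run, and joint capture of 2 cells of 1 kind cannot be told apart from 1 cell with much RNA.

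Mixed lineage genes were measured in 2 ways. By marker lists, a lineage was counted where at least 3 list genes and 5 list UMIs were found among 10000 UMIs. By weights, each barcode was fitted as a mixture of the annotated profiles and called mixed where a second lineage took at least 20%. The aaTEC2 label was counted as epithelial in the weights. Its annotated cells had a median of 399 mesenchymal and 17 epithelial list UMIs of 10000, so fibroblast RNA can enter the epithelial weight. Fibroblast and mural genes were counted as 1 lineage for mixing. Of the 67 barcodes, 44 carried more than 1 lineage by lists (65.7%, 53.1 to 76.8) and 34 by weights (50.7%, 38.2 to 63.2). Both calls were made for 29 and neither for 18. Of the 34 mixed by weights, 4 were adipocyte-gene and 7 granule-gene barcodes. The fit can only divide a barcode among the annotated labels, and none of these was a fat cell label. The adipocyte-gene barcode of 100570 UMIs had an epithelial weight of 31.2% with 0 epithelial list UMIs of 10000. A mixed weight in such barcodes therefore need not show genes of more than 1 lineage. The most frequent set was epithelial with mesenchymal genes (15 barcodes, and 10 more with mural genes), while 8 carried epithelial genes alone. Another 3, all closest to mTEC1, were counted through mural genes only, a list that 19.8% of annotated mTEC1 cells carried. The T-lineage list was carried by 0 of 67.

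Among annotated cells of at least 3000 genes, those with more genes were mixed more often. By lists the share was 7.04% at 3000 to 3999 genes, 16.8% in the 4000s, 40.2% in the 5000s and 52.9% (46.4 to 59.3) in the 6000s. The 69 annotated cells in the 2000s stood outside this order by lists, at 23.2%. By weights the share was 2.72%, 10.6%, 34.8% and 47.1% (40.7 to 53.6). The intervals of the 67 barcodes overlapped those of the 6000s by both measures. Within epithelial labels, 69.1% (61.0 to 76.4) of 149 annotated cells in the 6000s and 75.6% (60.5 to 87.1) of the 45 epithelial-closest barcodes were mixed by lists, and 50.3% and 51.1% by weights. Without the adipocyte-gene barcodes, the shares of the epithelial-closest barcodes were 78.6% by lists and 47.6% by weights. Annotated cells contributed to the profiles they were fitted with, and the 67 did not. Whether these barcodes held more than 1 cell was not tested by any measure other than these genes.

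**Figure D4:**
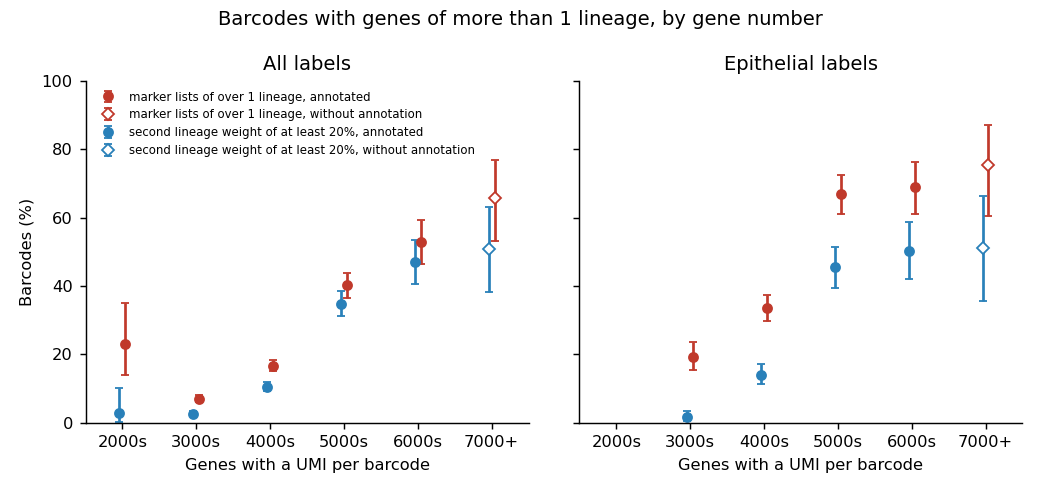
Share of barcodes (%) with marker lists of more than 1 lineage (red) or a second lineage weight of at least 20% (blue) by genes per barcode, for all labels (left) and epithelial labels (right), with filled points for annotated cells, open ones for the 67 and exact 95% binomial intervals. Shares rise from the 3000s to the 5000s, and the open points overlap the 6000s.

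A stricter mark, at least 100 mesenchymal UMIs of 10000, was chosen after the values had been seen. It was met by 28 of the 67 barcodes and by 21 of the 45 epithelial-closest ones (46.7%, 31.7 to 62.1), against 39.6% (31.7 to 47.9) of annotated epithelial cells in the 6000s and 1.07% of those in the 3000s. Over all annotated labels, fibroblasts included, the mark was met by 49.6% in the 6000s and 70.3% in the 3000s. The 28 include all 5 barcodes closest to fibroblast labels, where the mark does not show mixing. By group it was met by 10 of 10 closest to aaTEC2, 3 of 3 cTEC, 6 of 15 mTEC1 and 1 of 12 medullary barcodes. In the medullary barcode that met it, of 31774 UMIs, 297 UMIs of Dcn stood beside 9 of Aire and 74 of RT1-Da. Of the 12 medullary barcodes, 6 carried epithelial genes alone.

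**Figure D5:**
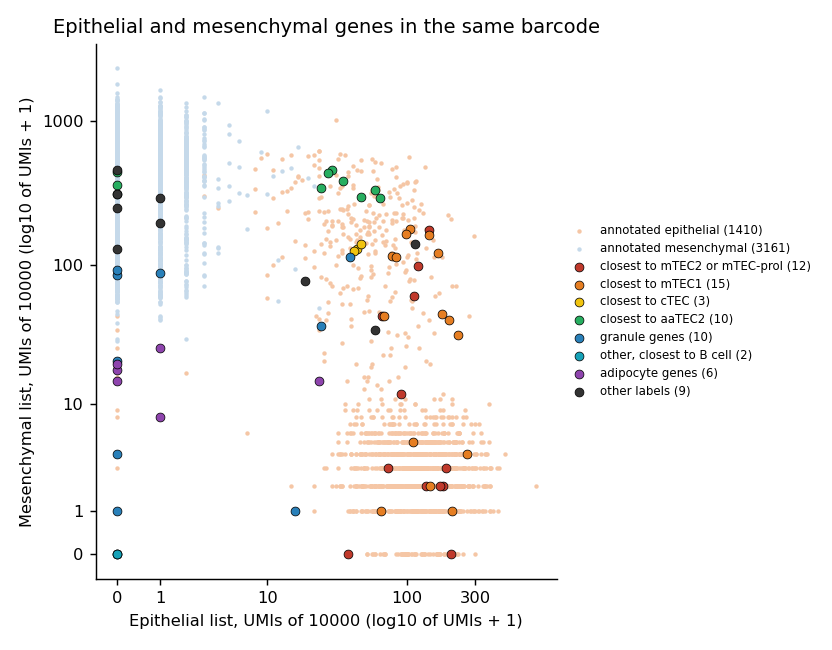
Epithelial (horizontal) and mesenchymal (vertical) list UMIs of 10000 per barcode, both as log10 of UMIs plus 1, for annotated epithelial (1410) and mesenchymal (3161) cells as small points and the 67 unlabelled barcodes as large ones. The 10 barcodes closest to aaTEC2 lie at 294 to 459 mesenchymal UMIs, and 1 of the 12 medullary barcodes lies above 100.

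All 45 epithelial-closest barcodes were set against each medullary label across genes. Against annotated mTEC2, 482 of 8442 genes were at least 3-fold higher (5.71%) and 436 lower (5.16%). Against mTEC-prol, 548 of 8867 were higher (6.18%) and 56 lower (0.632%). Most of the 45 were not closest to either label, so the lists follow that makeup. Against mTEC2, 7 of 11 mTEC2 genes, 7 of 9 class II genes and 8 of 8 antigens were lower, while 8 of 11 mesenchymal and 8 of 17 cell-cycle genes were higher. Against mTEC-prol, 10 of 11 mesenchymal genes were higher and 4 of 20 cell-cycle genes lower. The adipocyte list was higher in 7 of 8 and 7 of 7 genes, and 3 of the 45 are adipocyte-gene barcodes, while the other 42 had at most 2 adipocyte list UMIs of 10000. With only members of 1 lineage, 150 genes were higher and 282 lower than mTEC2, and 161 and 135 than mTEC-prol.

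The genes with the largest leads over mTEC2 were Reg3b at 407 CPM against 3.43, Tnc, a matrix glycoprotein, at 197 against 4.57, and Acta2 at 340 against 14.9. Nos2, the inducible nitric oxide synthase, was at 2.72 against 117 and Ly6d at 5.44 against 216. Il12a had 0 UMIs in the 45, with 59.4 CPM in mTEC2. The leads over mTEC-prol included the fibroblast genes Pi16 at 645 against 9.51, Fbn1 at 726 against 13.9 and Col1a1 at 1474 against 28.5. Fabp4 stood first at 2017 against 10.2, with a UMI in 12 of 45 barcodes, and at 136 without the 3 adipocyte-gene barcodes. Among the 10 named genes below mTEC-prol were the mitosis genes Pttg1 at 58.7 against 304, Tpx2 at 65.2 against 274 and Cdc20 at 45.7 against 185.

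Thinned to 10000 UMIs, the 67 barcodes showed 3217 to 4261 genes with a median of 3894, against 3568 in the 33 annotated mTEC2 cells deep enough, a ratio of 1.09. Annotated mTEC-prol had a median of 3800. Epithelial-closest barcodes had a median of 3941, against 3846 in annotated epithelial cells of the 6000s. The medullary 12 had a ratio of 1.06 to both labels. Thinning removes depth but not the choice by gene number, so higher numbers follow in part from the criterion. Lower numbers were found in the granule-gene and adipocyte-gene groups, with medians of 3497 and 3392. In all, 19541 genes had a UMI in the 67 barcodes, and 89 of these had none in any annotated cell of the library. The chaperone gene Hspd1 stood at 478 CPM over the 67, but its median per barcode was 206, and 736 of its 1454 UMIs came from the 6 adipocyte-gene barcodes.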

How the data were processed

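For both droplet libraries the authors deposited raw UMI counts, from Cell Ranger 8.0.0 and the build mRatBN7.2, with Seurat 5.3.0 also named, per the submitters' processing notes. The authors also deposited cell labels and a mitochondrial percent, which here equalled the share of mt-Rnr1 and mt-Rnr2 alone. Members and lists were chosen with earlier results of these data known, and steps were tested on simulated data. Of 313 list entries, 307 were found by name. Levels are summed UMIs as CPM with exact Poisson intervals, and shares have exact Clopper-Pearson intervals, both at 95%. Thinning to 10000 UMIs was without replacement (seed 7). Profiles used labels of at least 20 cells, genes of at least 100 UMIs and 1 added CPM. Folds against fewer than 3 UMIs used 3. Named genes were list genes and, per comparison, up to 10 genes of the largest ratio with at least 50 UMIs in the higher group and a UMI in 25% of its barcodes, leaving out genes with most UMIs in 1 barcode or named by an identifier only. Python 3.11.15, NumPy 2.4.6, SciPy 1.17.1 and pandas 2.3.3 were used. Alternatives changed thresholds, depth, genes and members.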

Additional observations from a re-analysis of the deposited data

Results flagged for a closer look

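Aire was also found in unlabelled barcodes with fewer genes, which no comparison above uses. It had 82 UMIs in 40 of the 2867, a level of 14.6 CPM (11.6 to 18.1), above the 4.98 CPM (4.61 to 5.38) of all annotated cells, where it had 656 UMIs. The highest count in 1 of these barcodes was 9 UMIs.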

How the results depend on the processing

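No paired analysis was possible because each library is 1 sample, and there is no replicate to leave out. Alternatives with all mitochondrial genes, with both medullary labels together, and without adipocyte-gene barcodes were chosen after seeing the data. Over all alternatives, 51 values stayed close, 63 moved and 2 reversed, and the cause was not tested. A minimum of 7500 or 8000 genes left 32 or 16 barcodes. More than 1 lineage was carried by 52 with at least 2 list genes and 3 UMIs, and by 56 with all UMIs. A second lineage weight of 10% or 30% gave 45 or 17. For the medullary barcodes against both labels, averaging CPM over barcodes reversed Epcam (1.05 times) and gave 1.06 for class II, 1.61 for cell-cycle and 0.420 for antigen lists. Without mitochondrial, ribosomal and haemoglobin genes class II stood at 1.00. The 6 barcodes with 1 lineage gave 1.05 for mTEC2, 1.06 for class II, 1.99 for cell-cycle and 0.335 for antigen lists. The 3 with at least 8000 genes gave 1.19, 1.08, 2.15 and 0.420. Annotated cells of at least 20000 UMIs gave 0.881, a reversed 0.888, 1.22 and 0.736. Counts of genes followed the threshold. At 2-fold, 1193 were higher and 790 lower than mTEC2, 842 and 329 than mTEC-prol, and 313 and 541 for the medullary barcodes against both labels. At 5-fold they were 168 and 249, 358 and 7, and 32 and 97. With at least 20 UMIs they were 881 and 835, 983 and 125, and 248 higher for the medullary barcodes. With at least 200 UMIs they were 143 and 113, 176 and 20, and 10 and 36. With 1-lineage barcodes alone they were 150 and 282, 161 and 135, and 366 lower for the medullary barcodes.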
